A study of Mus musculus with 4 samples.

Results

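Genes of mitosis, 9 in number, were followed in a mouse fibroblast line whose labels give the kinase PKR as induced by withdrawal of tetracycline: the cyclin genes Ccna2, Ccnb1 and Ccnb2, the kinase genes Cdk1, Plk1 and Bub1, the anaphase activator gene Cdc20, the topoisomerase gene Top2a and the spindle gene Nusap1. The members were taken by name, as every probe set whose single gene symbol in the platform annotation was 1 of these 9. This rule found 9 probe sets for 7 of the 9 genes, 6 on the first array type and 3 on the second, among 6137 genes with a single-symbol probe set in all. Ccnb1 and Cdc20 had no such probe set and are not analysed here.

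The cells were a stable NIH3T3 line, an immortalised mouse embryonic fibroblast, with wild-type PKR behind a promoter that tetracycline represses. The tetracycline cultures had DMEM with 1 µg/ml tetracycline and 5% fetal calf serum, and the withdrawn cultures had been without tetracycline for 5 h, with no serum content given in their labels. Each condition was read on 1 array of each of 2 types, the second marked MB in the titles, with different probe sets on each type. There was therefore no replicate, no test was possible, and every difference below describes 1 pair of arrays. The labels do not say whether the line is 1 clone or which species the PKR transgene came from.

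In dividing cells Cdk1 bound to an A-type or B-type cyclin drives entry into mitosis, Plk1 and the Aurora kinases build the spindle, and the checkpoint kinase Bub1 delays anaphase until chromosomes are attached. The anaphase-promoting complex with Cdc20 then has the mitotic cyclins destroyed. Transcripts of these genes accumulate from late S phase to mitosis and are scarce in resting cells, so that they are widely used as a readout of proliferating cells. Their promoters are known for 2 short elements, the CCAAT box bound by NF-Y and the cell cycle genes homology region (CHR), spelled TTTGAA or TTTAAA.

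Promoter sequence is shown for the genes with the highest change, the change nearest 0 and the lowest change among those measured on the first array type, Cdk1, Plk1 and Nusap1. The sequences are the 250 bases before the annotated start in RefSeq on GRCm38.p6, read along the strand of the gene, at chr10:69352913-69353162 (minus strand) for Cdk1, chr7:122159185-122159434 (plus strand) for Plk1 and chr2:119618048-119618297 (plus strand) for Nusap1. Capitals mark the CCAAT box and either CHR spelling on both strands, and ATTGG is a CCAAT box read backwards. No 2 marked matches overlap.
Cdk1: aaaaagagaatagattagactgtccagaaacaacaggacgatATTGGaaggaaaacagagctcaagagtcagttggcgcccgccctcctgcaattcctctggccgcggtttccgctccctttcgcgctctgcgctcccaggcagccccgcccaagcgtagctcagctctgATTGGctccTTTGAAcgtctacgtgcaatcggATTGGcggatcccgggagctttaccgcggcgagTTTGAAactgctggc
Plk1: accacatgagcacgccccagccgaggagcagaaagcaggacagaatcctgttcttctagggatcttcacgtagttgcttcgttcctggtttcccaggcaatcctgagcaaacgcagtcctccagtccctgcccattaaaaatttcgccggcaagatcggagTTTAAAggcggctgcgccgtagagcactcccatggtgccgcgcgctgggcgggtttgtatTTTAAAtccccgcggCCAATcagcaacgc
Nusap1: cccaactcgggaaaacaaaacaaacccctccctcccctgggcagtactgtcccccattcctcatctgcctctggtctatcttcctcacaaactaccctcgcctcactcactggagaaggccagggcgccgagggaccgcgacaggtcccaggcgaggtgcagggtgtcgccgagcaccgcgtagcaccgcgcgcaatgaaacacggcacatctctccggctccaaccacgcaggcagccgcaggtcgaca

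The table of promoters held 8 of the 9 genes, all but Ccna2. In the window of 250 bases before to 50 bases after the start, CCAAT was found in 7 of the 8, against 37.4% of the 32851 promoter windows in the table. TTTGAA was found in 5 of the 8, Ccnb2, Cdk1, Cdc20, Plk1 and Top2a, against 17.9%, and TTTAAA in Ccnb1 and Plk1, against 13.2%. Cdk1 held 3 CCAAT and 2 TTTGAA, Plk1 held 1 CCAAT, 1 TTTGAA beyond the printed stretch and 2 TTTAAA, and Top2a held 6 CCAAT and 2 TTTGAA. Bub1 held 2 CCAAT and neither CHR spelling, and the Nusap1 window held none of the 3 motifs, which says only that these letters are not in this window. These matches describe the sequence and are not shown to be sites.

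Values are the deposited linear intensities, and a change is the log2 ratio of the withdrawn reading to the tetracycline reading of the same probe set. A probe set counted as measured when both its intensities exceeded a floor, set at the 25th percentile of its array type (129.7 for the first, 80.0 for MB). A stricter control floor lay at the 95th percentile of what 39 controls of bacterial and yeast sequence read (281.5 and 340.4). As a yardstick the change of each measured member probe set is set beside the spread. The spread is a robust SD taken over the 200 probe sets closest to it in level. For other genes it is given only where stated, so most of their changes are not set beside it. The spread mixes probe noise with real differences and is no replicate error. Levels of different genes are not compared, since probe sets differ in how brightly they read.

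Of the 9 mitotic probe sets 8 were measured. The changes of 2 of these 8 (25%), those of Nusap1 and, only just, Top2a on the first type, were larger than the spread at their level, against 32.7% of all measured probe sets, so that the members as a set lay near the background. Nusap1 was 2.78-fold lower after withdrawal, the only measured member probe set past 2-fold in either direction. Across all probe sets measured on both arrays, 4.02% of the first type were at least 2-fold lower and 4.36% at least 2-fold higher, and for the MB type these shares were 6.65% and 8.46%. In these bulk cultures fewer cells in mitosis and less RNA of a gene per cell cannot be told apart.

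The cyclins were read on the MB type. Ccna2 encodes cyclin A2, the partner of Cdk2 in S phase and of Cdk1 in late G2. Its probe set (z26580_s_at) read 2316.3 with tetracycline and 1916.2 after withdrawal. The log2 change of -0.27 was smaller than the spread of 0.32, with both readings more than 5 times the control floor (6.80 and 5.63 times). Ccnb2 encodes cyclin B2, a mitotic partner of Cdk1. Its probe set (X66032_s_at) read 349.3 and 299.1, a log2 change of -0.22 against a spread of 0.93. It was dim, at 1.03 times the control floor with tetracycline and under it after withdrawal. Both cyclins were thus lower on the withdrawn array, by amounts within the scatter of probe sets of their level, and 47.5% of all measured MB probe sets were lower to any extent.

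Cdk1, the kinase subunit that these cyclins activate, was read on the first type. Its probe set gave 5585.0 with tetracycline and 6442.5 after withdrawal (u58633_s_at). The log2 change was 0.21 and the spread 0.28. Plk1, the polo-like kinase of mitotic entry and spindle assembly, read 2370.0 and 2388.8 (u01063_f_at), a log2 change of 0.011 against a spread of 0.34. Of the probe sets measured on that type, 52.3% had a lower value of the change than Plk1 and 67.8% a lower one than Cdk1. Neither kinase was lower on the withdrawn array as deposited, though the sign for Plk1 turned with quantile normalization (-0.041) and with a level trend removed (-0.011).

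Bub1, the kinetochore kinase of the spindle checkpoint, had 2 probe sets on the first type. The brighter (af002823_s_at) read 343.5 with tetracycline and 296.7 after withdrawal, with a log2 change of -0.21 and a spread of 0.72. The dimmer (C80208_rc_at) read 203.6 and 55.7. This second reading after withdrawal was under the floor, so the probe set gives only a bound of at least 1.57-fold lower against that floor. Both of its readings were under the control floor, and against that floor no fold can be given. Both Bub1 probe sets were lower on the withdrawn array, and neither was far above the level that bacterial and yeast controls reach.

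**Figure D1:**
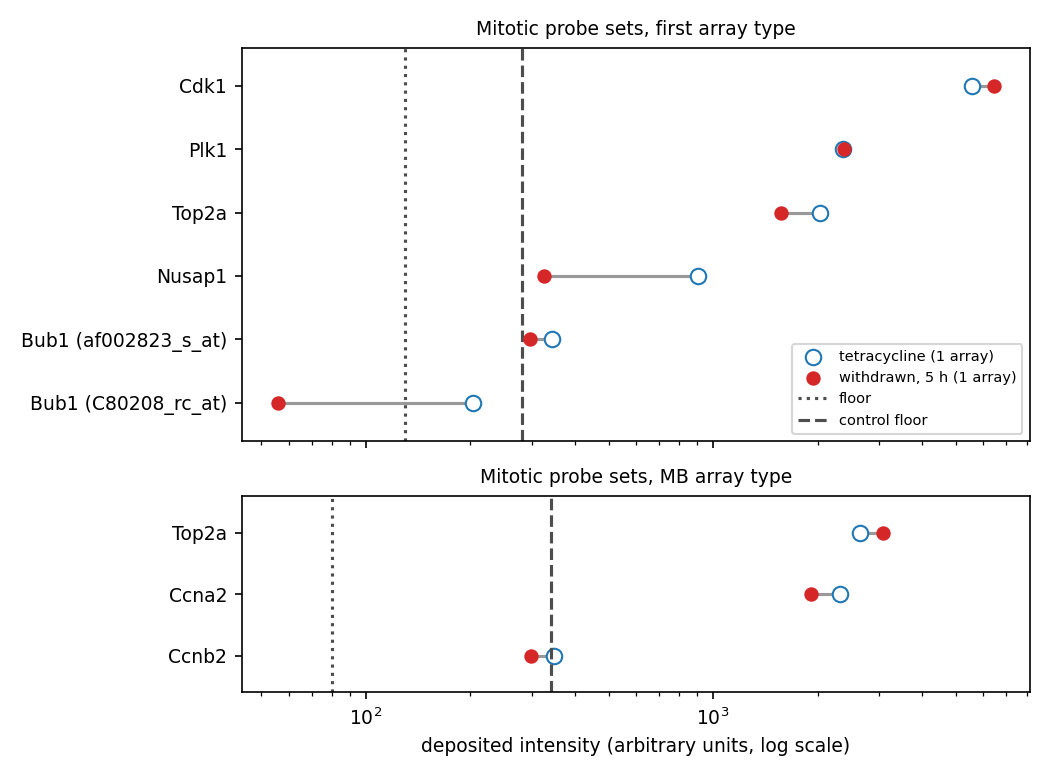
Deposited intensity (log scale) of each member probe set on the tetracycline array (open) and the withdrawn array (filled), with 1 array per condition and type. The vertical lines are the floor and the control floor of each type. Nusap1 went from 905.1 to 325.5, the pairs for Cdk1, Plk1, Ccna2, Ccnb2, the brighter Bub1 and both Top2a probe sets lie close together, and the dimmer Bub1 probe set ends under the floor.

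Top2a encodes topoisomerase II alpha, which untangles sister DNA before anaphase, and is the only member read on both array types. On the first type (d12513_f_at) it read 2034.2 with tetracycline and 1564.4 after withdrawal, a log2 change of -0.38. On the MB type it read 2645.3 and 3093.7, a log2 change of 0.23. The spreads were 0.38 and 0.36, and the changes had opposite signs and lay 0.60 apart. Among the 171 genes read above the control floor on both types, the changes of the types lay a median of 0.29 apart and 90% lay within 0.75. Both probe sets are annotated to 1 source sequence, and whether both types were given the same RNA is not stated. Their median, -0.076, is the value used for Top2a below, and it becomes 0.23 if the brightest probe set alone is taken.

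Nusap1 encodes nucleolar and spindle associated protein, a microtubule-binding protein that bundles spindle fibres around chromosomes. Its probe set on the first type (aa266783_s_at) read 905.1 with tetracycline and 325.5 after withdrawal. The log2 change of -1.48 was 2.53 times the spread of 0.58. The withdrawn reading stood at 1.16 times the control floor, so that the size of the difference rests on a dim value. Above the control floor 1.29% of the first-type probe sets were at least 2-fold lower, and of those 3555 probe sets 5 had a lower change than Nusap1. Over the deposited values and 4 other scalings its change lay between -1.48 and -1.43. It was the only probe set with Nusap1 as its single symbol, so the change has no second reading here.

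**Figure D2:**
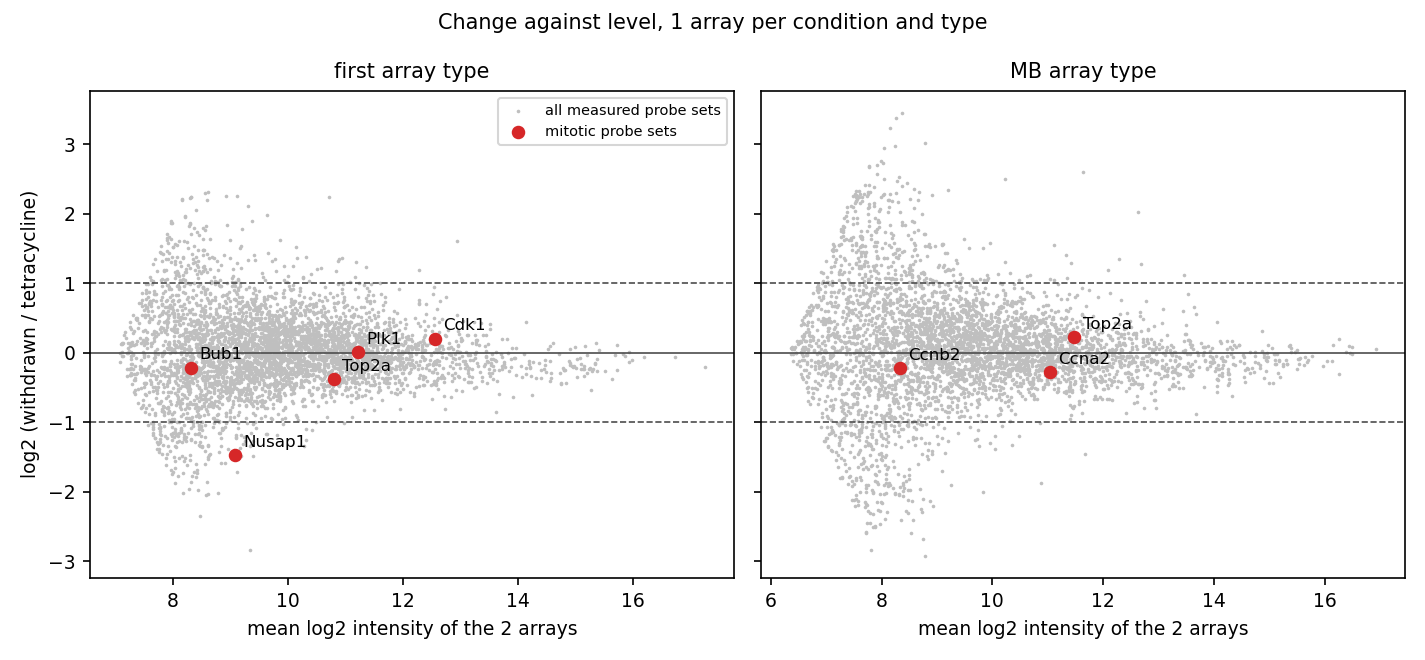
The log2 change (vertical axis) against the mean log2 intensity of the 2 arrays (horizontal axis) for all measured probe sets of each type (grey) and the measured mitotic ones (red). Dashed lines mark 2-fold. Nusap1 at -1.48 lies past 2-fold, and the other 7 lie between -0.38 and 0.23, inside the grey cloud.

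With each gene given the median over its measured probe sets, 5 of the 7 members were lower to any extent (71.4%) and 2 were higher. The 5 include Top2a, whose probe sets had opposite signs. Over all 4507 measured genes 50.4% were lower. The median of the 7 was -0.21 and that of all measured genes -0.0037. Without Ccnb2, which was under the control floor on the withdrawn array, the median of the other 6 was -0.14. By type, 3 of 5 measured member probe sets were lower on the first type, where 51.1% of all were, and 2 of 3 on the MB type. The members are few and share their arrays, so these counts describe the 4 arrays only.

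The wider mitotic machinery was described with 6 lists of other genes by role, of which 70 genes were measured. Of these 34 were lower (48.6%) and 36 higher, with a median of 0.035. None was at least 2-fold lower, against 4.22% of all measured genes, and 3 (4.29%) were at least 2-fold higher, against 5.26%. Above the control floor 0 of 65 list genes were past 2-fold in either direction. Of all 3582 genes above that floor, 43 were at least 2-fold lower and 74 at least 2-fold higher. At a 1.5-fold limit 5 of the 70 were lower (7.14%, against 10.8% of all genes) and 6 higher (8.57%, against 13.2%). Of the 84 measured probe sets of these genes 36.9% differed by more than the spread, against 32.7% of all measured probe sets. These shares lie near or under the background. The count of measured genes leaves out any gene that was under the floor on 1 array, for which only a bound can be given. Of the 99 probe sets of these lists, 2 (2.02%) had a bound of at least 2-fold lower against the floor and 2 (2.02%) of at least 2-fold higher, against 3.16% and 2.72% of all probe sets with 1 symbol. The lower ones were Dlgap5 and Incenp and the higher ones Ttk and Melk, described below.

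Genes of mitotic entry had a median of -0.078 over 11 genes. Ccna1, the cyclin A of the germ line, went from 94.1 to 246.6 (1.39), both under the control floor. Wee1, the kinase that holds Cdk1 inactive, read 242.8 and 555.9 on its measured probe set (1.20), the first reading under the control floor. The lowest was the Cdk-associated phosphatase gene Cdkn3, from 370.1 to 239.3 (-0.63, spread 0.77), the second reading under the control floor. Partners of Cdk1, picked after their values were seen, gave differences in both directions. The Cdk-binding subunit genes Cks1b and Cks2 gave -0.341 and -0.427 (spreads 0.339 and 0.346). Cdc25c, a phosphatase that activates Cdk1, gave 0.34 (spread 0.42). A second phosphatase gene, Cdc25a, gave -0.595 and 0.438 on its 2 probe sets (spreads 0.399 and 0.815), opposite in sign as for Top2a. Among these picked partners the changes larger than their spread, that of Cks1b only just, were lower. This rests on the pick, since other genes of the list were higher by more than their spread. Cdk7, also named after its values were seen, went from 926.8 to 1373.8 (0.57, spread 0.41). The changes of Ccna1 and of the measured Wee1 probe set were larger than their spreads of 1.18 and 0.80.

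Mitotic kinases and their passenger complex had a median of 0.080 over 5 genes. Aurkb, the Aurora kinase of the centromere and midzone, was the lowest, from 985.1 to 610.1 (-0.69, spread 0.44). Plk4, the polo-like kinase of centriole duplication, was the highest, from 640.5 to 734.9 (0.20). Aurka, the Aurora kinase of the spindle poles that activates Plk1, was chosen after its values were seen and gave 0.27 on its first-type probe set and 0.076 on its MB one. No measured gene of this list was past 2-fold, and the activator Aurka and its substrate Plk1 both read within their spread. Under the floor with tetracycline were Ttk, the checkpoint kinase Mps1, and the kinase gene Melk. Ttk went from 113.3 to 420.6, at least 3.24-fold higher against the floor but at least 1.49-fold against the control floor. Melk went from 64.1 to 295.3, at least 3.69-fold higher against the floor, but was under the control floor on both arrays. A probe set of Incenp, the scaffold of the passenger complex, went from 261.5 to 115.1, at least 2.02-fold lower against the floor and under the control floor on both arrays, while the measured Incenp probe set gave 0.080.

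Spindle checkpoint and anaphase-promoting complex genes, the partners of Bub1 and Cdc20, had a median of 0.046, with 8 of 12 higher and 4 lower. Over all measured genes 50.4% were lower. Bub3, which brings Bub1 to kinetochores, was the highest over its 2 measured probe sets (0.45 and 0.23, from 5385.2 to 7342.1 and from 3721.5 to 4363.2). Another, dim probe set of Bub3 went the other way, from 175.6 to 23.6, at least 1.35-fold lower against the floor and under the control floor on both arrays. Anapc13, a subunit of the complex, was the lowest, from 2389.1 to 1768 (-0.43). Kinetochore genes had a median of 0.27 over 4 genes. Their lowest was Cenpa, the centromeric histone variant (1224 to 804.8, -0.60), and their highest Cenpc1, which binds it (334.6 to 434.9, 0.38). No measured gene of either list was past 2-fold.

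Spindle, kinesin and cytokinesis genes, the class of Nusap1, had a median of -0.061, with 14 of 22 lower, against 50.4% of all measured genes. The highest was Spag5, which encodes the spindle protein astrin, from 89.5 to 265.3 (1.57), both under the control floor. The lowest was the dynactin subunit gene Dctn1, from 1683.5 to 1118.9 (-0.59). Kpna2, a nuclear import receptor, was chosen after its values were seen and was lower on both its probe sets (-0.40 and -0.71). The beta-tubulin gene Tubb5, chosen likewise, was lower on both of its own (-0.29 and -0.21). Of all genes with several measured probe sets, 54.5% had changes all of 1 sign, and of such genes in the mitosis lists 53.8%. Dlgap5, a spindle assembly factor, was not among these 22, since it went from 558 to 57.6, under the floor. It was at least 4.30-fold lower against the floor and at least 1.98-fold lower against the control floor. On the first type Nusap1 and Dlgap5 were thus both lower after withdrawal by more than any of the 22 measured genes. Each rests on 1 probe set, and Dlgap5 was named after its value was seen. A probe set of Ckap5, a gene of this list, went the other way on that type, from 242.7 to 574 (1.24). It was at least 2.04-fold higher against the control floor, while the other Ckap5 probe set gave 0.12. Against that floor 1 of the 99 probe sets of the mitosis lists (1.01%), that of Ckap5, had a bound of at least 2-fold higher. Over all probe sets with 1 symbol this share was 0.756%. None of the 99 had a bound of at least 2-fold lower, against 0.65% of all probe sets with 1 symbol. Both counts lie near the background.

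Genes of mitotic chromosomes and the lamina, beside which Top2a acts, had a median of 0.048 over 16 genes. The cohesin gene Stag2 was the highest, from 672.1 to 1161.4 (0.79), and the condensin gene Ncaph the lowest, with -0.72 and -0.53 on its 2 probe sets. Mki67, the proliferation antigen Ki-67, was chosen after its values were seen and read 4114.9 and 3166.4 on the MB type (-0.38, spread 0.31). The isoform gene Top2b, chosen likewise, read 353.2 and 366.2 (0.052). Ki-67 was thus lower by slightly more than the spread while Top2a gave opposite signs on the 2 array types.

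**Figure D3:**
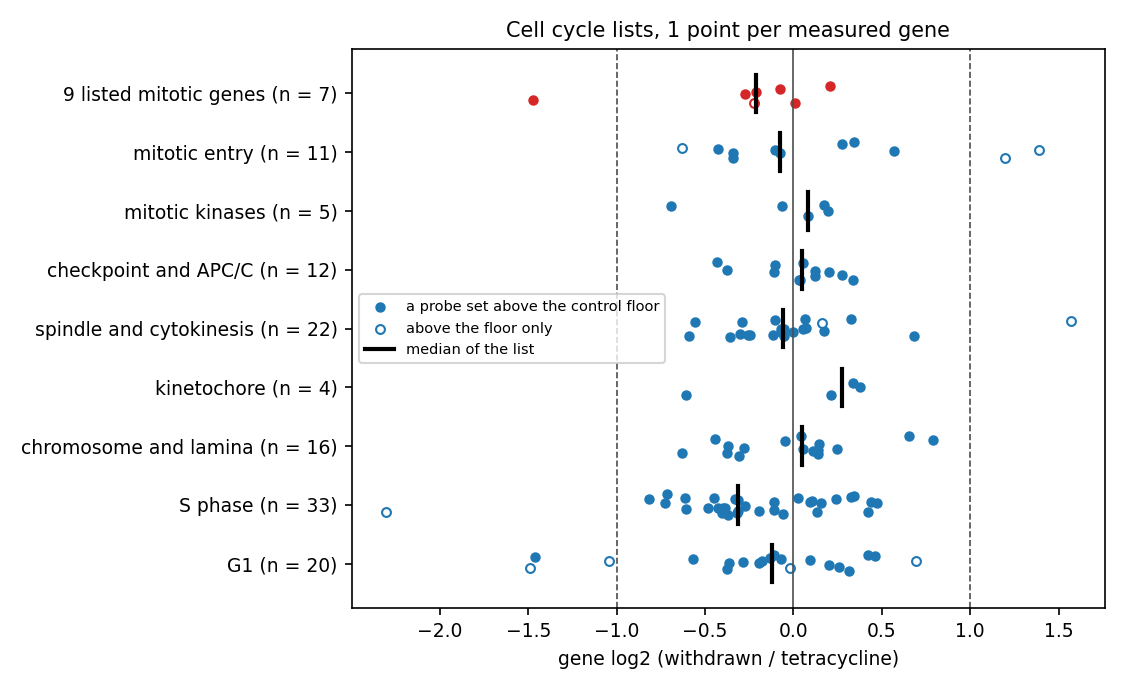
The log2 change of each measured gene (1 point, vertical scatter only separates points) in the mitotic genes (red) and in other cell cycle lists (blue), with the list median as a black bar and 2-fold as dashed lines. Open points were never above the control floor on both arrays. The medians are -0.21 for the 7 mitotic genes and between -0.078 and 0.27 for the 6 other mitosis lists, -0.31 for S phase and -0.12 for G1.

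The phases before mitosis were set beside these genes. Over all measured genes 50.4% were lower and 4.22% at least 2-fold lower. The S phase list held 33 measured genes with a median of -0.31, 22 of them lower (66.7%), 1 of them by 2-fold (3.03%). That 1 was the replication licensing gene Cdc6 (491.9 to 99.7), under the control floor after withdrawal. A further 2 of the 43 S phase probe sets (4.65%) had a bound of at least 2-fold lower against the floor. Over all probe sets with 1 symbol this share was 3.16%. The 2 were 1 each of Rrm2 (536.7 to 61.5) and Chaf1b (324.7 to 52.6). Against the control floor neither bound reached 2-fold (1.91 and 1.15). The measured Rrm2 probe sets gave smaller changes of -0.72, -0.61 and -0.18. The list for G1 control held 20 with a median of -0.12, 13 of them lower (65.0%) and 3 by 2-fold (15.0%). Past 2-fold were the growth arrest gene Gas1 (5407.3 to 1964, -1.46) and 2 members of the retinoblastoma family, Rbl1 (-1.49) and Rbl2 (-1.05), both under the control floor after withdrawal. The median of the 7 mitotic genes lay between those of the S phase and the G1 list, and with 1 array per condition no difference between the lists could be tested.

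The labelled conditions could not be checked on these arrays. The gene of PKR itself, Eif2ak2, read 643.3 and 663.6 on its 1 mouse probe set (log2 change 0.045), which may not detect the transgene. The labelled cell type was set against marker genes. Fibroblast markers were above the control floor on 17 of 19 probe sets in both conditions, with Col1a1, a collagen of fibroblasts, the brightest at 34944.4 and 27204.9. The summed intensity of that list was 60744 with tetracycline and 49161 after withdrawal on the first type, and 191159 and 155663 on the MB type. Of other cell types, endothelial markers were above that floor on 1 of 6 probe sets in both conditions (brightest Kdr), epithelial ones on 1 and 2 of 7 (Krt8), leukocyte ones on 4 and 5 of 9 (Cd14), and muscle ones on 5 of 7 in both (Actc1). Fibroblast markers had a median log2 change of -0.20, beside -0.21 for the mitotic genes, and their part in the mitotic values was not tested.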

How the data were processed

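Total RNA of cultures in 2 conditions was read on 4 arrays of 2 types. In the deposited tables every probe set has 1 linear intensity on each array. The authors' software and scaling were not given in the sources used here. The 2% trimmed means of the arrays lay between 996.6 and 1000.4, and the deposited intensities were used unscaled. The 61 control probe sets per type were left out, which left 6523 and 6534. Of these, 5541 and 2001 had 1 gene symbol, updated through Entrez identifiers to RefSeq symbols of GRCm38.p6. Each was compared within its array type as log2 of withdrawn over tetracycline, with no pseudocount and no p-value. A gene took the median over its measured probe sets. The number of arrays limits the precision.

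The members and lists were chosen with earlier results of these data known. Named are all members, and of each mitosis list the highest, the lowest and every gene past 2-fold; of the S phase and G1 lists only genes past 2-fold; of marker lists the brightest gene. Others are marked as chosen later; genes given with a bound, other than members, were also chosen after their values were seen. Alternatives were 4 scalings (loess with span 0.4, quantile, trimmed mean, median ratio), 4 floors (0.5 and 2 times the floor, the control floor, none), limits of 1.5-fold and 3-fold, a gene's brightest probe set, and each type alone. Counting and scaling were tested on simulated data. The tools were Python 3.11.15, pandas 2.3.3, numpy 2.4.6, statsmodels 0.14.6 and matplotlib 3.10.9.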

Additional observations from a re-analysis of the deposited data

How the results depend on the processing

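No paired analysis was possible because each condition has 1 array per type. The median of the measured mitotic genes stayed below 0 under every scaling, floor and probe set rule run, and on each type alone. Not all of these runs held 7 genes. At the control floor 6 were left (-0.14). The first type alone held 5 measured member probe sets (-0.21) and the MB type 3 (-0.22). Above the control floor the MB type held 2 (-0.024). The main median of -0.21 is the value of Bub1, whose spread was 0.72. Of the 7 genes 5 were lower as deposited, 6 with quantile normalization or loess, and 4 with the brightest probe set per gene. The count of member probe sets at least 2-fold lower was 1, became 2 with no floor, where the dimmer Bub1 probe set enters, and 0 at a 3-fold limit. With no floor the Bub1 gene change was -1.04. The Plk1 change turned to -0.041 with quantile normalization and to -0.011 with loess, and the Top2a gene change to 0.23 with the brightest probe set or on the MB type alone. The median of all genes, -0.0037, was 0.017 with median ratio scaling and 0.0095 on the MB type alone.

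For the other mitosis genes, 3 were at least 2-fold higher and 0 lower. These counts were 5 and 1 at the lower floor, 6 and 3 with no floor, and 6 and 5 at a 1.5-fold limit. The count of higher genes was 1 at the higher floor, and 0 at the control floor, at a 3-fold limit and on the first type alone. Their median of 0.035 turned to -0.0029 at the control floor and to -0.067 on the MB type alone. Dim probe sets limit these counts.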
